A study of Mus musculus with 8 samples.

Results

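The Zic genes encode zinc-finger transcription factors whose DNA-binding domain is related to that of the Gli factors, and 4 of them lie in 2 head-to-head pairs, Zic1 with Zic4 on mouse chromosome 9 and Zic2 with Zic5 on chromosome 14. The members described here are the rows of a table of H3K27me3 regions that overlap the bodies of these 4 genes with 5 kb added on each side, on the GRCm38 build. They are 4 of the 13585 regions in the table, 1 at Zic1/Zic4 and 3 at Zic2/Zic5.

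H3K27me3 is a histone mark placed by Polycomb repressive complex PRC2, and broad domains of it are known to cover the CpG-rich genes of developmental transcription factors that a cell keeps silent. Zic1 and Zic4 are known for their roles in the dorsal neural tube and the cerebellum, and loss of both together is linked to Dandy-Walker malformation. Zic2 acts in forebrain and midline formation and is a holoprosencephaly gene, and Zic5 acts in neural crest. SMCHD1, a chromosomal ATPase best known for silencing on the inactive X chromosome, is altered by a missense change in the MommeD43 allele.

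H3K27me3 chromatin immunoprecipitation and sequencing (ChIP-seq) was done in neural stem cells (NSCs) of female C57BL/6J mice, grown for fewer than 10 passages from the cortex of embryos at E14.5. The WT group held 3 libraries from separate cell lines of genotype Smchd1GFP+/+, and the MommeD43 group held 3 from separate lines of genotype Smchd1GFPMommeD43/MommeD43, so both groups carry a GFP tag on the endogenous Smchd1 and neither is untagged. Each genotype also had 1 whole cell extract (WCE) library. The values come as 1 column per genotype, the authors' mean of log2 counts over the 3 ChIP libraries, so no value below has an SD, an n or a replicate test, and each difference, MommeD43 minus WT, is between pooled libraries.

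Error is given as the smallest counting error that the depth allows. The step between low values showed that a read stood for 3.27 normalized counts in the WT column and for 2.63 in the MommeD43 column, and the reads behind each value give a Poisson error with its 95% interval. The interval covers counting error only and leaves out all variation between cell lines. The annotated starts of 8 of 12 neural stem cell marker genes, among them Sox2, Vim, Fabp7, Sox9, Slc1a3, Notch1 and Emx2, lay outside every H3K27me3 region, while those of Nes, Hes1, Hes5 and Lhx2 lay inside one. This is near the share of all autosomal protein-coding starts in a region, 28.9%, so the markers do not set the cell type apart by this mark. Of 12 genes of other lineages, 11 had their start in a region.

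The annotated starts of each pair lie close together. By RefSeq starts, Zic1 on the minus strand and Zic4 on the plus strand are 3.2 kb apart, although 1 of the 12 Zic4 transcripts in GENCODE begins inside Zic1, so that 3398 bases of the 2 gene bodies overlap. The GENCODE starts of Zic5 on the minus strand and Zic2 on the plus strand are 9.76 kb apart. The sequence before the start of 1 gene of each pair is shown because CpG dinucleotides, in capitals, are the feature in which the loci can be compared with their H3K27me3. Both stretches run 5′ to 3′ on the strand of the gene from 250 to 51 bases before its RefSeq start in GRCm38.p6. Both lie wholly within a region of the table, the Zic5 stretch only through the 2.5 kb by which the authors widened each peak.
Zic1, minus strand, chr9:91365819-91366018: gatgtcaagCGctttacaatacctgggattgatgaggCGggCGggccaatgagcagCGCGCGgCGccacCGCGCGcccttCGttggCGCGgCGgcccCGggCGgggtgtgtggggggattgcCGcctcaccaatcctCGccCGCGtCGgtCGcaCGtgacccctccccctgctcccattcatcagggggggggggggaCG
Zic5, minus strand, chr14:122465709-122465908: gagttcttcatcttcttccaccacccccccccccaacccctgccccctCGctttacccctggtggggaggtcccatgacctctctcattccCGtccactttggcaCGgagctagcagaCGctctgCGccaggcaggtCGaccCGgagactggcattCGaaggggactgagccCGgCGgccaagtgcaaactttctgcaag
The Zic1 stretch holds 24 CpG and the Zic5 stretch 10, against a median of 4 and quartiles of 2 and 11 in the same stretch of 32851 RefSeq promoters. The Zic4 stretch, chr9:91368722-91368921 on the plus strand, holds 2. RefSeq sequences matched 3 of the 4 genes, Zic1, Zic4 and Zic5. The Gli-type site TGGGTGGTC, searched on both strands, was in 0 of the 3 Zic promoters from 250 bases before to 50 after the start, and in 0.253% of all promoters of that length.

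Both Zic1 and Zic4 lay inside 1 broad H3K27me3 domain of 118.4 kb, chr9:91343451-91461850, whose density was among the highest of the autosomes in both genotypes. The pooled value was 14.74 in WT and 14.83 in MommeD43, which is 230 and 245 normalized counts per kb of region. Behind these stood 8349 WT and 11034 MommeD43 reads per library. The difference was 0.09 on the log2 scale, a ratio of 1.06, with a counting error of 0.012 and an interval from 0.067 to 0.114. Among 11707 autosomal regions the domain ranked 95 by density in WT and 144 in MommeD43.

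The domain was not centred on the genes. It began 14.6 kb past the 3′ end of Zic1 and ended 72.5 kb past the 3′ end of Zic4. All coding and untranslated exons of both genes, all 3 annotated transcript starts of Zic1 and all 12 of Zic4 were inside it. It also held the short unclassified transcripts A730094K22Rik and Gm37477 and 36.2% of the long non-coding RNA gene Gm29478, including its start.

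At Zic2/Zic5 the table held 3 short regions of low WT density, and most of both genes lay between them. Region 1, chr14:122447901-122453350, had a value of 7.10 in WT and 7.82 in MommeD43, from 41.9 and 85.9 reads per library. Its difference was 0.72, a ratio of 1.65, with an interval from 0.416 to 1.03. It covers the start of Gm5089, a predicted protein-coding gene on the minus strand, and was chosen only through 1556 bases of the 5 kb added to Zic5.

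Region 2, chr14:122465301-122475250, lies between the 2 genes and had a value of 7.65 in WT and 8.03 in MommeD43, from 61.3 and 99.1 reads per library. The difference was 0.38, a ratio of 1.3, with an interval from 0.116 to 0.646. It holds all of the non-coding transcript 2610035F20Rik and 377 bases at the 5′ end of Zic5, of which 17 are coding and 360 untranslated. It ends 185 bases before the start of Zic2. Of the 3 it was the only one to touch the body of a member.

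Region 3, chr14:122484651-122494300, lies past the 3′ end of Zic2 and had a value of 8.11 in WT and 8.64 in MommeD43, from 84.8 and 151.8 reads per library. The difference was 0.53, a ratio of 1.44, with an interval from 0.307 to 0.749. It holds the predicted protein-coding gene Gm10837 and overlaps the 5 kb added to Zic2 by 202 bases. All 3 regions were higher in MommeD43 than in WT by more than counting error alone gives.

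The edges of these regions are not edges of the mark, because the authors widened each peak by 2.5 kb on both sides before joining neighbours. Without that widening, region 2 would run at most from 122467801 to 122472750. It would start at least 2124 bases from the Zic5 start, end at least 2685 bases from the Zic2 start and hold 0 bases of either gene. Region 1 would shrink to 450 bp and region 3 to at most 4650 bp, and neither would reach the 5 kb added to the genes. Region 1 would then also miss the start of Gm5089. The outer ends of the Zic1/Zic4 domain would be 113.4 kb apart, with both genes between them. Extents without the widening are outer limits, since joining may have closed gaps inside a region.

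**Figure D1:**
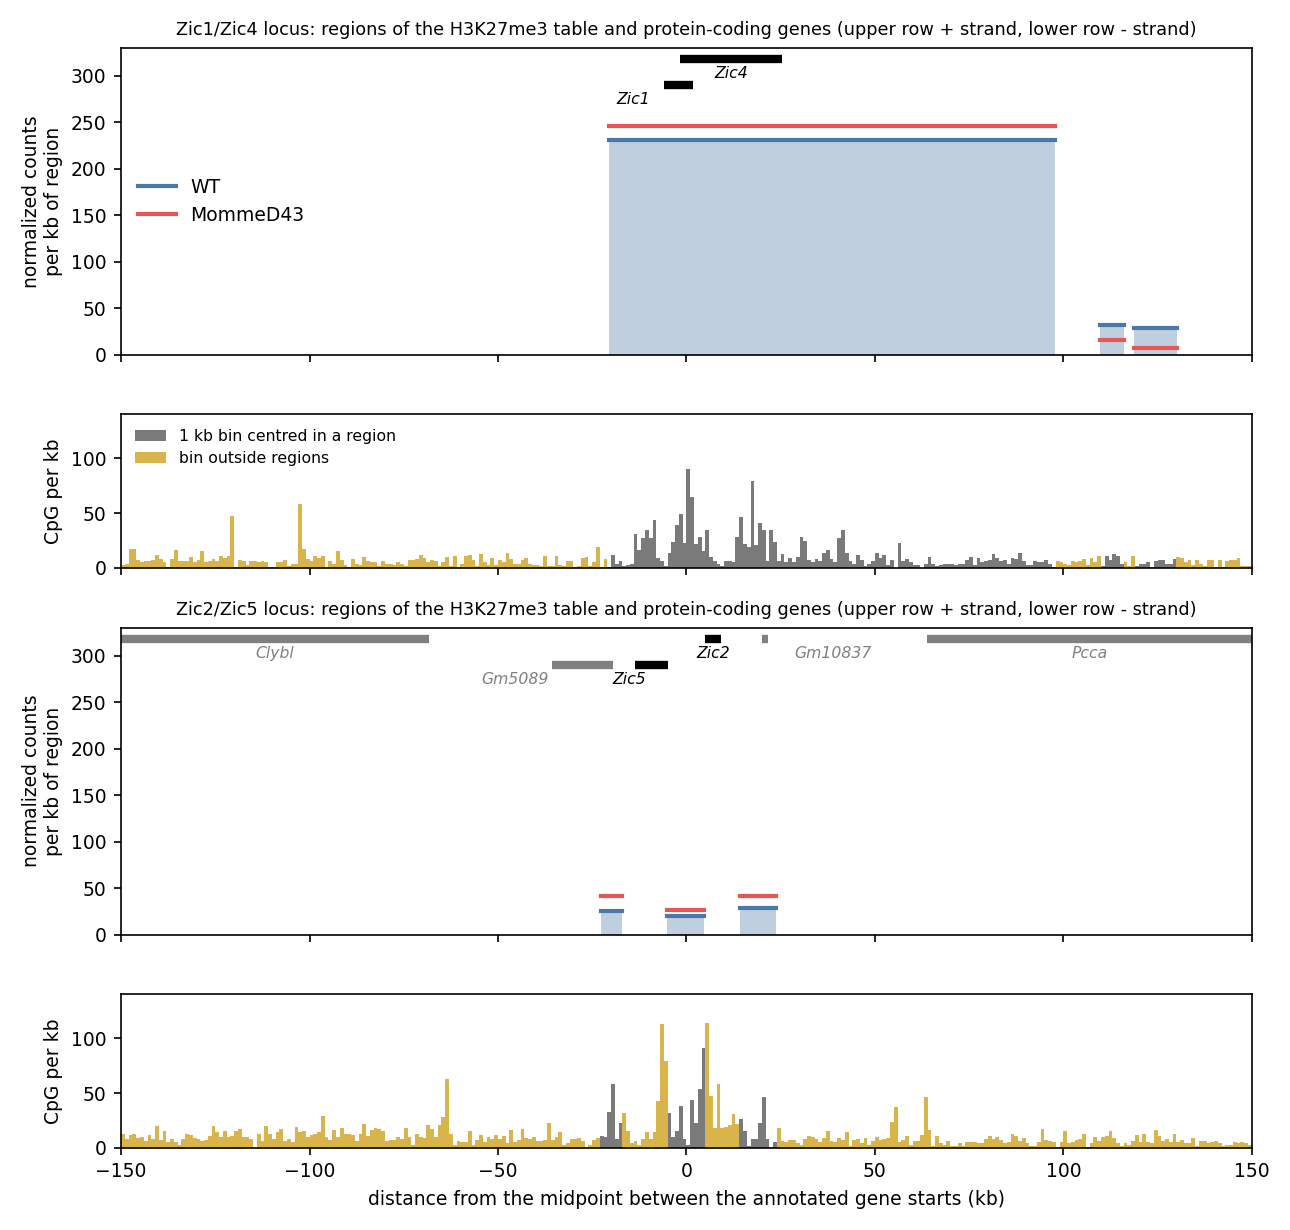
H3K27me3 regions at both loci, drawn by distance in kb from the midpoint between the annotated starts of each pair. Bars give the density of each region in normalized counts per kb (blue line and shading WT, red line MommeD43), black bars are the Zic genes, grey bars other protein-coding genes, and the lower panels give CpG per kb in 1 kb bins. The Zic1/Zic4 domain stands at 230 (WT) and 245 (MommeD43), the 3 Zic2/Zic5 regions between 20.1 and 41.5, and the CpG peaks at Zic2 and Zic5 lie mostly in bins outside the regions.

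Summed over its regions, Zic2/Zic5 had 24.5 normalized counts per kb in WT and 35.4 in MommeD43 over 25.05 kb. The density at Zic1/Zic4 was thus 9.39 times that at Zic2/Zic5 in WT and 6.93 times in MommeD43, over a covered length 4.73 times as long. These lengths include the 2.5 kb added on each side. Without it at most 0.45, 4.95 and 4.65 kb remain of regions 1, 2 and 3, against 113.4 kb at Zic1/Zic4. The ratios hold for the widened regions, and the part of the added length in them was not tested. In WT the regions 1, 2 and 3 had 25.2, 20.1 and 28.7 normalized counts per kb, which placed them at the 16.2, 6.56 and 26.7 percentiles of autosomal regions. In MommeD43 they had 41.5, 26.2 and 41.4, at the 61.5, 19.7 and 61.3 percentiles. Among the 5590 autosomal regions under 10 kb they stood higher, at the 29.7, 12.2 and 47.3 percentiles in WT and at 91.6, 34.3 and 91.4 in MommeD43.

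The Zic2/Zic5 locus carried no less CpG than the Zic1/Zic4 locus. From the outer end of one gene to that of the other, the Zic1/Zic4 span held 807 CpG in 31291 bp, or 25.8 per kb, and 100% of them were inside the domain. The Zic2/Zic5 span held 849 CpG in 23058 bp, or 36.8 per kb, and 290 of them, 34.2%, were inside a region. Zic1/Zic4 had 5 CpG islands of 4729 bp in all, each wholly in the domain. Zic2/Zic5 had 2 islands, one of 2976 bp over the Zic2 start with 1382 bp in region 2 and one of 2113 bp in Zic5 with 76 bp in region 2. Both overlaps lie wholly in the 2.5 kb that the authors added to each side, and the 34.2% also counts CpG there.

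The start of Zic2 was the most CpG-rich of the 4 by its GENCODE start and the only one outside every region, while 1 of the 2 annotated Zic5 transcript starts was inside. That Zic5 start was inside only through the added 2.5 kb. Without it the Zic5 start would lie at least 2124 bases and the Zic2 start at least 2685 bases outside region 2. The 2 kb centred on the Zic2 start held 207 CpG, more than 99.3% of autosomal protein-coding starts, against 110 at Zic1, 93 at Zic5 and 88 at Zic4. Of all 20807 autosomal protein-coding starts 28.9% lay in a region, and of the 140 starts with at least 207 CpG 43 did, or 30.7%. For Zic4 the count depends on the start used and was 46 at the RefSeq start.

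**Figure D2:**
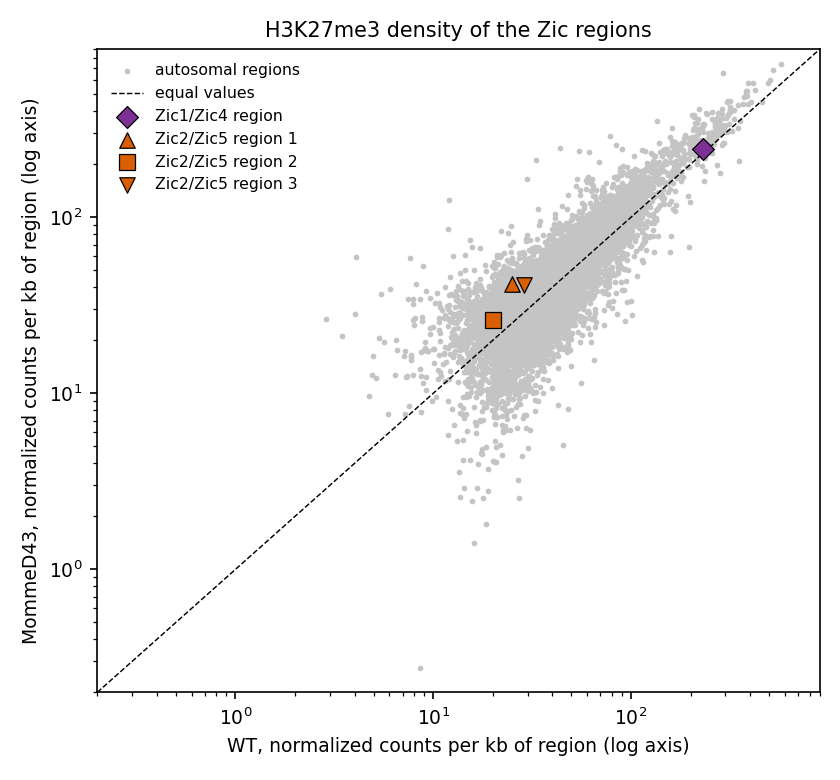
H3K27me3 density in WT (x axis) and MommeD43 (y axis), in normalized counts per kb of region on log axes. Grey points are the 11707 autosomal regions, coloured symbols the Zic regions, and the dashed line marks equal values. The Zic1/Zic4 domain lies at the upper end beside the line, and the Zic2/Zic5 regions lie among the low WT densities, above the line.

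As deposited, the difference between genotypes was smaller at Zic1/Zic4 than at each of the Zic2/Zic5 regions, but relative to the GC trend Zic1/Zic4 at 0.42 stood above region 2 at 0.21 and beside region 1 at 0.42. None of the 4 regions, 0 of 4, was at least 1 apart on the log2 scale, against 5.21% of autosomal regions, with 2.28% of them higher and 2.93% lower by that much. Over all 13585 regions 6.09% were higher and 3.03% lower by at least 1. The counting interval lay above 0 for all 4, against 37.9% of autosomal regions, and below 0 for 25.1% of them. Over the summed counts of the pair, Zic2/Zic5 had a difference of 0.53 with an interval from 0.381 to 0.678. The Zic1/Zic4 difference minus the Zic2/Zic5 difference was -0.44, with an interval from -0.589 to -0.288.

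The differences of regions 1, 2 and 3 stood at the 94.6, 79.0 and 88.1 percentiles of autosomal regions, whose median difference was 0.075. The Zic1/Zic4 difference stood at the 51.7 percentile. Among the 708 autosomal regions of at least 50 kb the Zic1/Zic4 domain ranked 69 by density in WT and 102 in MommeD43, and its difference stood at the 31.5 percentile of theirs, whose median was 0.26. Relative to the GC trend it stood at the 89.4 percentile, with a median of 0.08.

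Base composition moved with the difference between genotypes across the autosomes. Over the 11707 autosomal regions, which share the same libraries, Spearman's rho between GC content and difference was 0.583. The Zic1/Zic4 domain has 41.6% GC, where the running median of the autosomal difference was -0.32, and relative to that median its difference was 0.42, at the 88.5 percentile. Region 3 has 41.1% GC and moved from 0.53 to 0.90, at the 97.5 percentile. Regions 1 and 2, with 49.96% and 47.6% GC, stood at the 88.8 and 74.8 percentiles after the same step.

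The sign at Zic1/Zic4 also depended on the scaling. Scaled to the total of the regions its difference was -0.15, and with the trend against abundance removed it was -0.23. The contrast between the pairs was -0.19 relative to the GC trend and -0.70 relative to the abundance trend. The 3 Zic2/Zic5 regions stayed above 0 under each of these settings, but region 2 came down from 0.38 to 0.14 with total scaling, beside a counting error of 0.135, and to 0.21 relative to the GC trend. Region 1 came down from 0.72 to 0.48 and 0.42 under the same settings. The part of base composition in these values was not tested.

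**Figure D3:**
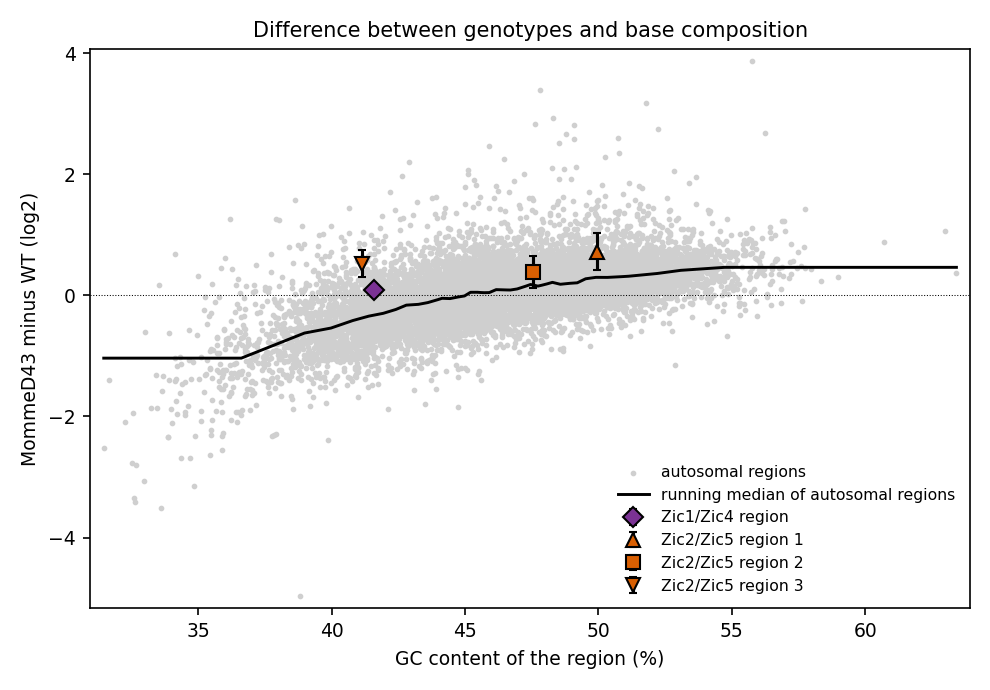
Difference between genotypes (MommeD43 minus WT, log2) against the GC content of each region in percent. Grey points are autosomal regions, the black line is their running median, and the error bars on the Zic regions are 95% counting intervals. The Zic1/Zic4 domain (0.09 at 41.6% GC) and region 3 (0.53 at 41.1%) lie above the line where the line is below 0.

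**Figure D4:**
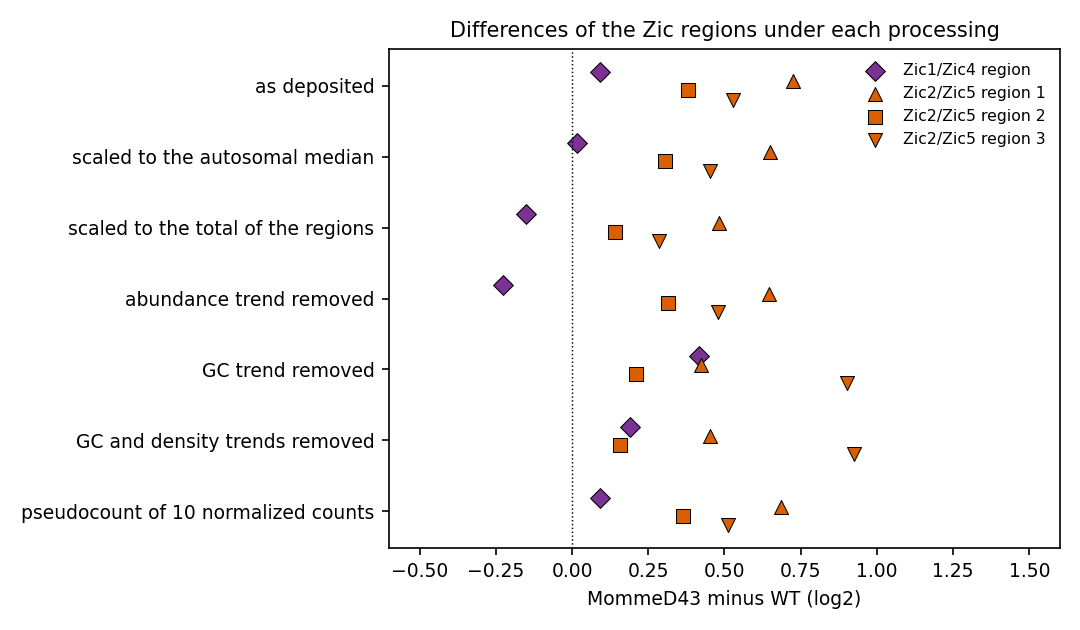
Difference of each Zic region (MommeD43 minus WT, log2) as deposited and under 6 other ways of processing. The Zic1/Zic4 domain ranges from -0.23 to 0.42 and crosses 0, and the 3 Zic2/Zic5 regions stay above 0 throughout.

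Past the end of the Zic1/Zic4 domain, the regions inside Gm29478 were lower in MommeD43. The first, chr9:91473951-91480300, begins after a gap of 12100 bp and had a value of 7.65 in WT and 6.61 in MommeD43, a difference of -1.04 with an interval from -1.38 to -0.70. The next, chr9:91482951-91494250, went from 8.33 to 6.35, a difference of -1.98 with an interval from -2.31 to -1.64, which is 28.5 normalized counts per kb in WT and 7.23 in MommeD43. Of autosomal regions 2.93% were lower by at least 1.

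A further region in Gm29478, chr9:91540851-91550650, was added after its values were seen and had a difference of -0.71. These 3 regions have 40.1%, 36.6% and 39.5% GC, and relative to the GC trend their differences were -0.53, -0.94 and -0.13. On the other side of the domain the nearest regions lay 644950 and 1221100 bp away, with differences of -0.21 and -0.17 and intervals that include 0. Relative to the GC trend the nearer of them turned to 0.82 and the other was -0.11. The nearest regions around Zic2/Zic5 were at Clybl, with 0.31 and 0.25, and at Pcca and Ggact, with 0.11 and -0.11, and the intervals of 3 of these 4 include 0. With total scaling the Clybl values were 0.073 and 0.0072, and the 0.11 at Pcca and Ggact turned to -0.13. The distances there ran from 219400 to 416350 bp.

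Among regions holding a protein-coding start, those nearest to Zic1/Zic4 in the 2 pooled values were at Dbx1 with Htatip2, at Tbx15 and at Atoh8. Their distances in the plane of both log2 values were 0.101, 0.120 and 0.121, and their differences were 0.22, 0.24 and 0.19. Those nearest to region 2 of Zic2/Zic5 were at Esm1, Kcnb2 and Iqsec1, at distances of 0.019, 0.036 and 0.045.

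As a comparison, the densities of other neighbouring transcription factor genes were summed by pair. Of 11 further pairs of adjacent paralogues, 10 had both starts in a region and 5 had both in the same one. Only Olig1/Olig2, the oligodendrocyte and motor neuron factors, had neither. The WT density of the 10 ran from 151 to 316 normalized counts per kb with a median of 237, beside 230 at Zic1/Zic4 and 24.5 at Zic2/Zic5. Summing by pair hides single genes, since Nkx2-2 alone had 23.4 in WT, below Zic2/Zic5.

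The differences of these 10 pairs ran from -0.62 to 0.57 with a median of 0.41, and 8 of the 10 were above 0, beside 77.0% of autosomal regions of at least 50 kb and 57.7% of all autosomal regions. The Dlx1/Dlx2 pair, homeobox genes of forebrain interneurons, went from 316 to 455 normalized counts per kb, and Six2/Six3 from 308 to 457. The homeobox pair Nkx2-2/Nkx2-4 had -0.62 over its summed counts, but its genes differed in direction, with 0.75 at Nkx2-2 and -0.70 at Nkx2-4, and relative to the GC trend Nkx2-4 had -0.03. By single gene, 20 of 22 starts were in a region, beside 28.9% of all autosomal protein-coding starts. Of the 20, 0 were past 1 in either direction, against 3.84% of autosomal regions with a protein-coding start. The highest was Irx2 at 0.93, and Dlx3 at 0.39 was nearest the median. Relative to the GC trend the median of the 20 was 0.32, with Irx2 at 0.71 and Dlx3 at 0.06.

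**Figure D5:**
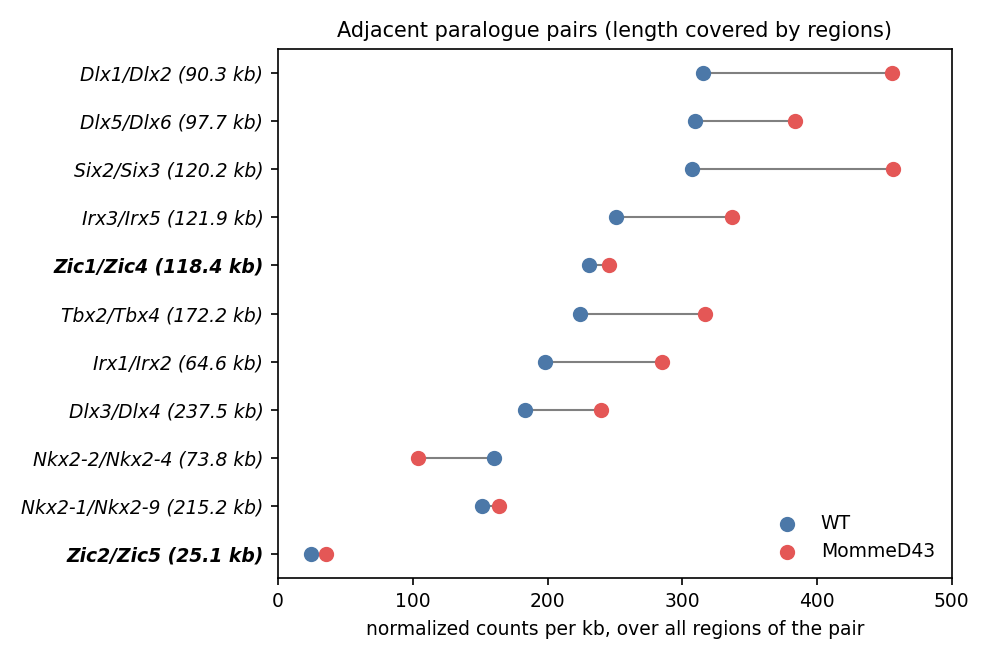
Density of H3K27me3 over all regions of each adjacent paralogue pair, in normalized counts per kb, for WT (blue) and MommeD43 (red), with the covered length in brackets. Of the pairs with regions 1 is not drawn. Zic1/Zic4 lies in the middle of the range with 230 and 245, and Zic2/Zic5 lies below the other pairs drawn with 24.5 and 35.4.

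The Gli factors share their type of zinc finger with the Zic proteins. Of 18 genes of the Gli and hedgehog pathway 12 had their start in a region, beside 28.9% of all autosomal protein-coding starts. The median difference of the 12 was 0.50 (0.29 relative to the GC trend). Of the 12, 0 were higher and 1 was lower by at least 1, against the same 3.84%. The lower gene was Hhip, which binds hedgehog ligands, at -1.06. The highest was the ligand Dhh at 0.83, and the factor Gli2 at 0.52 was nearest the median. The median over all autosomal regions with a protein-coding start was 0.17.

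Of 16 genes of the dorsal neural tube and neural crest, where Zic genes act, all 16 starts were in a region, beside 28.9% of all autosomal protein-coding starts. Of the 16, 1 was higher and 0 were lower by at least 1, beside the 3.84% given above for either direction. Their median was 0.51, and 0.28 relative to the GC trend. Bmp4, a dorsalizing ligand, was highest at 1.62, Foxd3, a neural crest factor, was lowest at 0.17, and Lmx1b, a roof plate homeobox gene, was nearest the median at 0.53. All 16 differences were above the 0.09 of Zic1/Zic4, but with the GC trend removed 6 of 16 were above its 0.42. Among all autosomal regions these 2 values stood at the 51.7 and 88.5 percentiles.

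The 14 cerebellum and midbrain-hindbrain genes were alike in this, with all 14 starts in a region (28.9% of all autosomal protein-coding starts), 2 higher and 0 lower by at least 1 (3.84% in either direction over autosomal regions with a protein-coding start) and a median of 0.56, or 0.40 relative to the GC trend. Foxc1 at 2.13 was highest, Gbx2 was past 1 at 1.02 but not relative to the GC trend at 0.85, the midbrain-hindbrain homeobox gene En2 at 0.56 was nearest the median, and Ptf1a, a factor of cerebellar GABAergic neurons, was lowest at 0.12. As deposited all 14 were above Zic1/Zic4, and relative to the GC trend 7 were, beside its 51.7 and 88.5 percentiles among all autosomal regions. The lists share the same libraries, and these counts describe where the Zic1/Zic4 domain stood among them.

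In the 4 neural stem cell markers with a start in a region, 0 were past 1 and the median was 0.18, which turned to -0.08 relative to the GC trend. As deposited they ran from Lhx2 at -0.31 to Nes at 0.56, with Hes5 at 0.35 nearest the median. In the 11 genes of other lineages with a start in a region, 2 were higher by at least 1, the limb and heart factor Tbx5 at 2.67 and the mesoderm factor T at 1.39, and 0 were lower by at least 1. For both lists the share over autosomal regions with a protein-coding start was 3.84% in either direction. The density of Zic1/Zic4 was exceeded by 4 of the 16 dorsal genes in WT and 9 in MommeD43, and by 2 of the 14 cerebellar genes in WT and 7 in MommeD43. Among all autosomal regions that density stood at the 99.2 percentile in WT and 98.8 in MommeD43. In WT 0 genes of either list lay below the density of Zic2/Zic5.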

How the data were processed

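H3K27me3 ChIP-seq was compared between 3 WT and 3 MommeD43 libraries, with 1 WCE library per genotype whose values were not analysed here. The authors trimmed reads with Trim Galore 0.4.4, aligned them with Bowtie2 2.3.4.1 to GRCm38.p6 and counted them in SeqMonk over peaks called per genotype on merged replicates, widened by 2.5 kb and joined. The labels describe MNase digestion and the study's methods shearing, so the fragmentation is uncertain. The deposited values are log2 counts scaled by the authors to total library size and then averaged within each genotype, with no division by length and no WCE subtraction.

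The planned analysis allowed for counts per library. The pooled log2 columns allowed no count test and no leave-one-out, so differences are values without p. Low values gave whole products of 3 counts, within 0.1, for 99.9% of 1139 WT and 99.6% of 684 MommeD43 values, against 20% by chance, from which reads per value followed. The step was tested on simulated data.

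Genes came from GENCODE vM21 and promoters from RefSeq, both on GRCm38. CpG islands were runs of 200-base windows with at least 55% GC and an observed over expected CpG of at least 0.65, at least 500 bp long. Trends were running medians over 40 bins. Alternatives were other scalings, trends with abundance, GC and density, a pseudocount of 10, a mean count of at least 50, and 0 or 50 kb around the genes. The named genes were the members, genes in member regions, the nearest 2 regions on each side, the 3 nearest in value, and the highest, lowest and median member of each list. Some genes that this rule or the lists would name are not reported here. The members and lists were chosen with earlier results of these data known. Coordinates count from 1. The tools were pysam 0.24.0, matplotlib 3.10.9, scipy 1.17.1 and pandas 2.3.3 in Python 3.11.15.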

Additional observations from a re-analysis of the deposited data

How the results depend on the processing

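Of the alternative values, 58 kept their direction and stayed within the counting interval or within 1.5 times of the count, 14 moved further and 4 changed sign. Some of the 58 could not change. The count filter and the 50 kb setting left the same regions, and the contrast does not depend on either scaling. The sign changes were all at Zic1/Zic4, the same for the region and for the pair, which is that 1 region. Its difference of 0.09 became -0.15 scaled to the total of the regions and -0.23 with the abundance trend removed, and it was 0.016 scaled to the autosomal median, 0.42 relative to the GC trend and 0.19 relative to the GC and density trends. Relative to both trends Zic1/Zic4 thus stood above region 2 of Zic2/Zic5, at 0.16. Region 3 of Zic2/Zic5 moved from 0.53 to 0.29 with total scaling, 0.90 relative to the GC trend and 0.93 relative to both. The Zic2/Zic5 pair moved from 0.53 to 0.29 with total scaling, and the contrast between pairs from -0.44 to -0.70 with the abundance trend and -0.19 with the GC trend removed. Total scaling put the median of all regions at -0.13, against 0.11 as deposited. The causes were not tested.

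In reads per kb, Zic2/Zic5 went from 7.51 to 6.16 in WT and from 13.4 to 9.96 in MommeD43 when only the region with the largest overlap with the genes was used. With 0 kb around the genes Zic2/Zic5 had 1 region, with a difference of 0.38 and a contrast of -0.29, and with 50 kb it had the 3 described. Regions at least 1 apart, 827 higher and 412 lower as deposited, were 491 and 779 with total scaling, 710 and 506 with the autosomal median, 608 and 525 with the abundance trend removed, 1140 and 97 relative to the GC trend, 1128 and 98 relative to both trends and 730 and 340 with a pseudocount. None of the 4 Zic regions was among them under any of these settings. No paired analysis was possible because each genotype has a single pooled column with no replicates, and leaving out a library was not possible for the same reason. At Zic2/Zic5, 41.9 to 151.8 reads per library limit the precision.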
